A study of Rattus norvegicus with 4 samples.

Results

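Cell cycle and DNA replication genes were compared between olfactory ensheathing cells of the olfactory mucosa and of the olfactory bulb. The set held 39 genes, taken by gene name from the array, and 36 of them had a probe there. Mki67, Mcm3 and Cdca3 had no probe under their names. All 36 passed the filter on dim probes, of 31897 gene names tested in all. They were split by textbook role into 12 S phase genes, which license and copy DNA, and 24 mitotic genes, which build the spindle and divide the cell.

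Olfactory ensheathing cells are glia that accompany the axons of olfactory sensory neurons, and cells of both sources were cultured by the same protocol from male Fischer rats. Amplification was by PCR over all cDNA, which can shift the ratio of transcripts, and each channel took 250 ng of cDNA. The 4 arrays are 4 biological replicates, each a pair with mucosa cells in Cy5 and bulb cells in Cy3. The dyes were never swapped, so dye and tissue cannot be told apart. A value below is the log2 ratio of mucosa over bulb cells after loess normalization within an array, so that a ratio of 1 is 2-fold higher in mucosa cells. The glial markers Sox10, S100b and Ngfr were well above background in both channels on all 4 arrays. Each was nevertheless lower in mucosa cells, at -1.87, -1.49 and -1.27 (adjusted p = 0.015, 0.011 and 0.021, limma). Spots well above background made up 89.8%, 91.05%, 82.8% and 86.3% of the Cy5 channel of replicates 1 to 4, and between 88.4% and 89.5% of the Cy3 channel.

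Cells divide by copying their DNA in S phase and parting it in mitosis. S phase genes are switched on largely by E2F transcription factors, which the retinoblastoma protein holds in check, and mitotic genes peak later under complexes that read CHR and CCAAT elements. In adult tissue most glia rest, whereas cultured ensheathing cells can divide, and transcripts of both waves are a common readout of cycling cells.

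The promoters of the 2 groups differed in these elements in the RefSeq windows of the GRCr8 build, which run from 250 bases before to 50 after a gene's start. A window was found for 30 of the 39 genes, 9 of S phase and 21 of mitosis. The E2F motif was searched as TTTGGCGC, TTTCCCGC, TTTCGCGC or TTTGCCGC, the CHR motif as TTTGAA and the CCAAT box as CCAAT, each on both strands. An E2F motif can share letters with a CCAAT box, and a CHR motif with a reversed one. The E2F motif lay in 6 of 9 S phase windows (66.7%) and in 1 of 21 mitotic windows (4.76%), against 2.14% of the 33469 windows in all. The CHR motif lay in 14 of 21 mitotic windows (66.7%) and in 1 of 9 S phase windows (11.1%), against 18.3% of all. The CCAAT box lay in 81.0% of mitotic and 66.7% of S phase windows, against 37.5% of all. Of the 36 genes measured, 27 had a window and 9 did not. The 6 with an E2F motif had a median log2 ratio of 0.02 and the 21 without it -0.30, and the 14 with a CHR motif had -0.21 and the 13 without it -0.03. All measured genes with an E2F motif except Cdk1 are S phase genes, and all with a CHR motif except Mcm2 are mitotic. These medians thus overlap with the comparison of the groups and are not a separate result about the motifs. A match of letters is a description of the window and not a binding site.

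**Figure D1:**
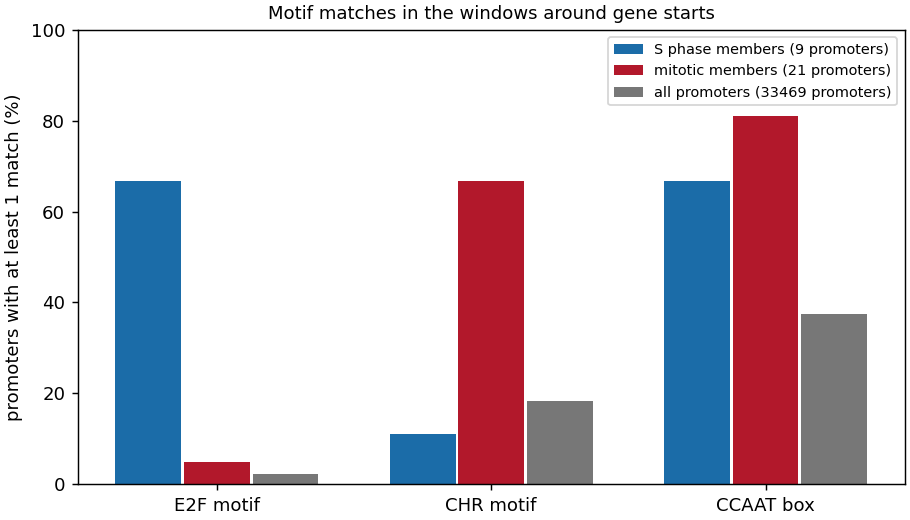
Share of promoter windows with at least 1 match, in percent, for the E2F motif, the CHR motif and the CCAAT box, in S phase genes, mitotic genes and all windows. The E2F bar is 66.7% for S phase genes and 4.76% for mitotic genes, and the CHR bar is 11.1% and 66.7%.

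Stretches before the start are shown for 3 genes with an E2F match and 4 with a CHR match, to show the elements that part the groups. Capitals mark the match, and each reads 5′ to 3′ on the gene's strand.
Tyms: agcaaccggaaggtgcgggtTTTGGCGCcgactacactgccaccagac
Mcm6: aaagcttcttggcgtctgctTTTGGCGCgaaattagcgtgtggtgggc
Mcm7: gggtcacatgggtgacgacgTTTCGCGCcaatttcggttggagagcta
Cdc20: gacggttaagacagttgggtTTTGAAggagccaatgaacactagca
Ccnb2: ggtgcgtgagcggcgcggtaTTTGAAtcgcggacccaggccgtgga
Kif23: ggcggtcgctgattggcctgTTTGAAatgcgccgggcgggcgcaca
Prc1: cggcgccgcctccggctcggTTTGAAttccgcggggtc
The Tyms stretch is chr9:120776093-120776140 on the minus strand and the Mcm6 stretch chr13:42404464-42404511 on the minus strand. The Mcm7 stretch is chr12:22163203-22163250 on the minus strand, where the E2F motif runs into a CCAAT box. The Cdc20 stretch is chr5:137255825-137255870 and that of Ccnb2 chr8:79981676-79981721, both on the minus strand. The Kif23 stretch is chr8:71320638-71320683 on the minus strand and that of Prc1 chr1:143659443-143659480 on the plus strand.

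The probes are 60-base oligonucleotides. Those of Mcm7, Pcna, Cdc20, Aurkb and Kif11 are shown because the values below rest on them and because each covers a longer stretch of the genome than its own length.
Mcm7: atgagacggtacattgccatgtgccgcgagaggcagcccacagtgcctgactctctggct
Pcna: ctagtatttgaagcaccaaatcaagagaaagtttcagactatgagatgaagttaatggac
Cdc20: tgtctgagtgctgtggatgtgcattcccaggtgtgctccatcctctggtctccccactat
Aurkb: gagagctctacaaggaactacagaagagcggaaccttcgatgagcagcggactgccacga
Kif11: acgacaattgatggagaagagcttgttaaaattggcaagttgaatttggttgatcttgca
By the array's rn4 coordinates, the Mcm7 probe lies on chr12:17608669-17609371 and the Pcna probe on chr3:120011217-120011421. The Cdc20 probe lies on chr5:138913267-138914237, that of Aurkb on chr10:55801393-55801534 and that of Kif11 on chr1:241682887-241683187. Exons and introns were not annotated here.

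No cell cycle gene of the set passed the test. Of the 36 genes, 0 were higher and 0 lower in mucosa cells at an adjusted p under 0.05 by limma with Benjamini-Hochberg adjustment over all names, where 6.62% of all names passed, 3.23% higher and 3.38% lower. At an unadjusted p under 0.05 there was 1 gene, Bub1, against 23.8% of all names. By the brightest probe, the mean ratio was at least 2-fold in 0 of the 36 genes and in 12.9% of all names. The median of the 36 mean ratios was -0.12, with 13 above and 23 below 0, and that of all names was 0.01.

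The intervals say how far this goes. The 95% interval of the mean ratio held 0 in 35 of 36 genes. In 12 genes it lay wholly within 2-fold either way, in 18 it reached a 2-fold lower level in mucosa cells and in 9 a 2-fold higher one. The smallest ratio that passed among all names was 1.85-fold. A moderate difference in these genes could therefore have gone without a call, and their missing the threshold does not show equal levels. In cultures of many cells, fewer cycling cells and less of each transcript per cell cannot be told apart.

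**Figure D2:**
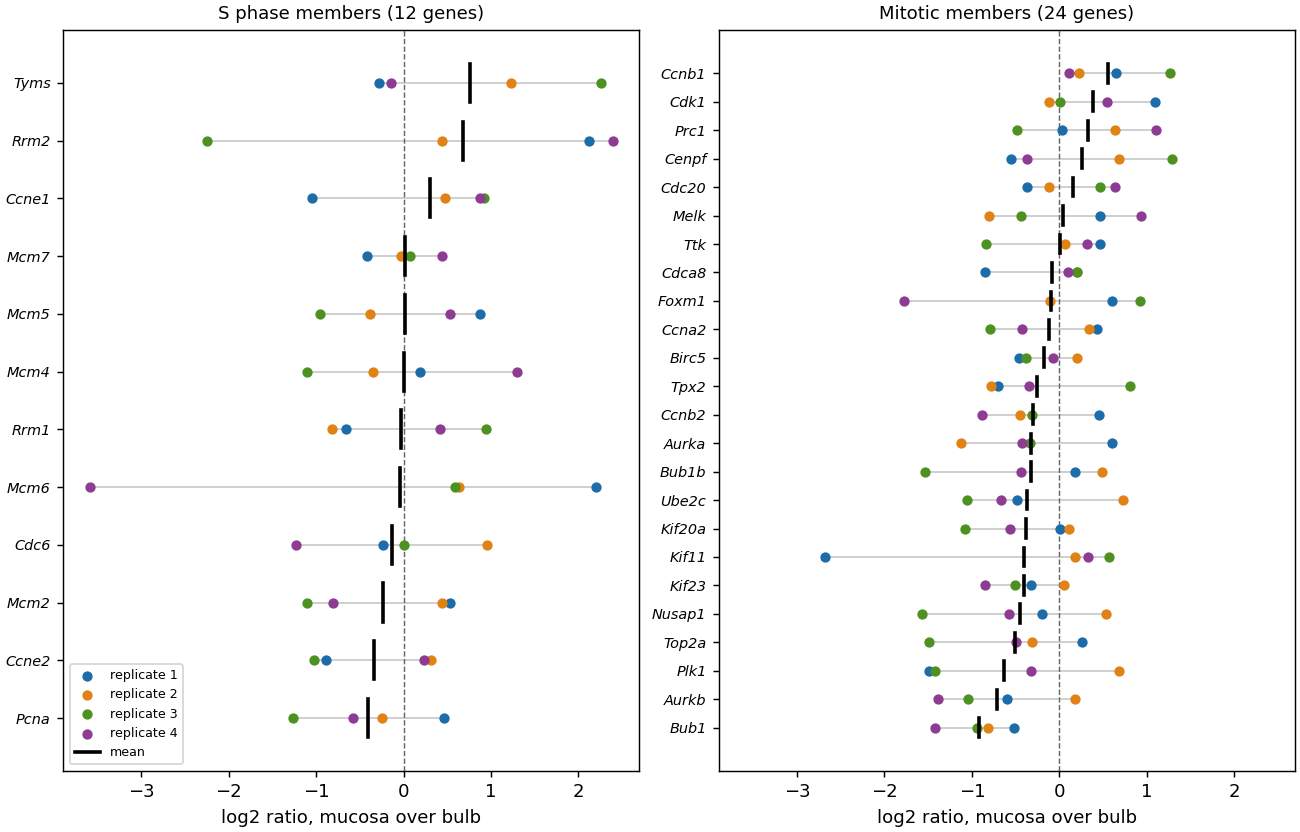
Log2 ratio of mucosa over bulb cells for each of the 12 S phase and 24 mitotic genes, by its brightest probe. Each gene has a point per replicate, a black bar at the mean and a grey line over the range. Points lie on both sides of 0 for each gene except Bub1 and Ccnb1, and Mcm6, Rrm2 and Kif11 have the widest ranges.

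Among S phase genes the largest positive mean belonged to enzymes of nucleotide supply. Tyms, thymidylate synthase, had -0.28, 1.23, 2.26 and -0.15 on replicates 1 to 4, a mean of 0.76 ± 1.20 (SD, n = 4; adjusted p = 0.36, limma). It was high in mucosa cells of replicates 2 and 3 and slightly below 0 in the others. Rrm2, the small subunit of ribonucleotide reductase, had 2.12, 0.44, -2.25 and 2.39, a mean of 0.68 ± 2.13. Replicate 3 lay on the other side of 0 from the remaining 3. Rrm1, the large subunit of the same enzyme, had a mean of -0.03 ± 0.85.

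Ccne1 and Ccne2 encode the cyclins E that drive entry into S phase. Ccne1 had -1.05, 0.48, 0.92 and 0.87, a mean of 0.31 ± 0.92. Ccne2 had -0.88, 0.32, -1.03 and 0.23, a mean of -0.34 ± 0.71. The pair thus had means of opposite sign, each with arrays on both sides of 0.

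The replication licensing genes lay near 0 on average. Mcm7, a subunit of the MCM helicase that opens DNA at origins, had -0.42, -0.03, 0.07 and 0.44, a mean of 0.02 ± 0.35 with a 95% interval from -0.53 to 0.56. It varied less between arrays than any other S phase gene of the set. Mcm2, another subunit, had 0.53, 0.44, -1.10 and -0.81, a mean of -0.24 ± 0.84. Its first 2 replicates were higher and its last 2 lower in mucosa cells. Mcm4 and Mcm5 had means of 0.01 ± 1.01 and 0.01 ± 0.84. Mcm6 had 2.20, 0.63, 0.58 and -3.59, and it is named here because of this spread, the widest in the set. The 5 MCM genes tested are parts of 1 complex, and their array medians were 0.53, -0.03, -0.96 and 0.44. Within replicate 4 they ran from -3.59 (Mcm6) to 1.30 (Mcm4). These values rest on the brightest probe of each gene. On replicate 3 the second probes of Mcm2 and Mcm4 had 0.48 and 0.61, where the brightest had -1.10 and -1.11. Over all arrays these second probes had means of -0.04 and 0.45.

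Cdc6, which loads the helicase onto origins, had -0.24, 0.96, 0.00 and -1.23, a mean of -0.13 ± 0.90. Pcna, the sliding clamp of DNA polymerase, had 0.46, -0.25, -1.26 and -0.58, the lowest S phase mean at -0.41 ± 0.72 (adjusted p = 0.47, limma). It was lower in mucosa cells on 3 of 4 arrays.

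Mitotic genes had 7 means above and 17 below 0. Bub1, a kinase of the spindle checkpoint, had -0.52, -0.82, -0.94 and -1.42, a mean of -0.92 ± 0.38 (adjusted p = 0.070, limma). It was below 0 on all 4 arrays and came nearest to the threshold. In mucosa cells its probe cleared background on 2 of 4 arrays, and in bulb cells on all 4, so it entered the test only through the channel where it is brighter. Its size moved with the background setting, to -2.35 with the processed signals (adjusted p = 0.052). It was called with median centring (-1.24, adjusted p = 0.026), with a background offset of 16 (-1.40, 0.040) and with a trended robust variance (-0.92, 0.038), and adjusted p lay between 0.026 and 0.20 over the 20 alternatives that gave it a value. Given how it entered the test, nothing is read from these calls.

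Aurkb and Plk1 had the next lowest means. Aurkb, the kinase of the chromosomal passenger complex, had -0.60, 0.17, -1.04 and -1.38, a mean of -0.71 ± 0.67. Plk1, a kinase of mitotic entry, had -1.49, 0.69, -1.42 and -0.32, a mean of -0.64 ± 1.03. By these probes both were above 0 on replicate 2 and below 0 on the other 3. The second probe of Plk1 had 0.11, 0.30, -0.73 and -0.02, a mean of -0.09. Top2a, the topoisomerase that untangles sister DNA, had 0.26, -0.32, -1.49 and -0.50, a mean of -0.51 ± 0.73. Its second probe had a mean of -0.13.

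Cyclin B1 and its kinase had the highest mitotic means. Ccnb1, cyclin B1, had 0.65, 0.22, 1.26 and 0.11, a mean of 0.56 ± 0.52 (adjusted p = 0.26, limma), above 0 on all 4 arrays. Its second probe had a mean of 0.19 and lay below 0 on replicate 3, at -0.08. Cdk1, the kinase that cyclin B1 activates (Cdc2a on the array), had 1.09, -0.12, 0.01 and 0.55, a mean of 0.38 ± 0.55. Their partner genes did not share this sign, since Ccnb2 had -0.30 ± 0.56 and Ccna2 -0.11 ± 0.60. Prc1, which bundles microtubules of the central spindle, had 0.03, 0.63, -0.48 and 1.11, a mean of 0.32 ± 0.69. Cenpf, a kinetochore protein, had -0.56, 0.68, 1.29 and -0.37, a mean of 0.26 ± 0.88, and was -0.08 without replicate 3.

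By their brightest probes, the other mitotic genes lay between -0.45 and 0.15. At the ends were Nusap1, a spindle protein, with -0.45 ± 0.87, and Cdc20, the activator of the anaphase-promoting complex, with 0.15 ± 0.48. Between them lay the motor genes Kif23 (-0.41), Kif11 (-0.40) and Kif20a (-0.38). The ubiquitin-conjugating enzyme gene Ube2c had -0.37, the checkpoint kinase gene Bub1b -0.33 and Aurka -0.32 (Stk6 on the array). Other probes of Bub1b had means of -1.055 and -0.10. The lower of these was below 0 on all arrays, and in mucosa cells it cleared background on only 2 of 4. Tpx2, which activates Aurka, had -0.25, the survivin gene Birc5 -0.18, the transcription factor gene Foxm1 -0.09 and Cdca8 -0.09. The kinase genes Melk and Ttk had 0.04 and 0.00. Kif11, the motor that pushes spindle poles apart, had -2.68, 0.18, 0.57 and 0.33, and is given by array because replicate 1 stood apart. Its second probe had -0.37, 0.12, -1.22 and 0.25, lowest on replicate 3.

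S phase and mitotic genes were then set side by side on each array. The S phase medians were -0.02, 0.38, -0.48 and 0.32 on replicates 1 to 4, and the mitotic medians were -0.10, 0.14, -0.46 and -0.40. The medians of all names were 0.00, 0.02, 0.03 and 0.05. Both medians were thus lowest on replicate 3 and highest on replicate 2, by the brightest probe of each gene. On replicate 3 the brightest probes of Mcm2, Mcm4, Pcna, Rrm2 and Ccne2 were below 0. Their second probes had 0.48, 0.61, 0.23, 2.04 and 0.11. Ccne1 went the other way, from 0.92 to -1.53, as did a second probe of Rrm1, from 0.94 to -0.96. These are all S phase genes. Of the mitotic genes, Top2a, Ccna2, Bub1b and Plk1 were below 0 there by each tested probe. Their other probes had -1.56 for Top2a, -1.60 for Ccna2, -0.29 and -0.83 for Bub1b and -0.73 for Plk1. Ccnb1 and Kif11 were above 0 by the brightest probe and below it by the other, at -0.08 and -1.22. The counts of genes above 0 set the arrays apart less, at 6, 7, 6 and 7 of 12 S phase genes and 12, 15, 8 and 8 of 24 mitotic genes. The S phase median exceeded the mitotic median by 0.07, 0.24, -0.02 and 0.72, a mean of 0.25 ± 0.33 (SD, n = 4). This spread was larger than the mean difference, and the difference was given no test.

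**Figure D3:**
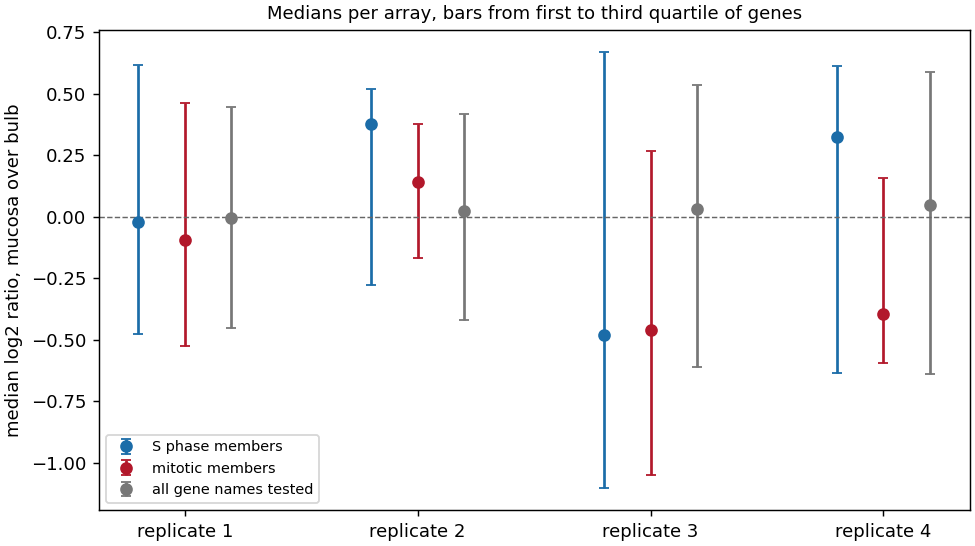
Median log2 ratio of mucosa over bulb cells on each of the 4 arrays for S phase genes, mitotic genes and all names tested. Bars run from the first to the third quartile of genes, each gene by its brightest probe. Both gene groups are lowest on replicate 3, and they part most on replicate 4, at 0.32 and -0.40.

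Other measures moved over the same arrays. Macrophage markers, 8 tested of 9 listed, had medians of 1.49, 0.41, -1.34 and -0.81, with 7, 5, 2 and 3 of 8 above 0, and all except 1 were well above background on all 4 arrays in both channels. Astrocyte markers, 7 tested, had medians of -0.09, -0.83, -1.44 and -1.59, and epithelial markers, 4 tested, -1.07, 0.15, -1.11 and 0.22. The share of Cy5 spots above background was lowest on replicates 3 and 4. The part of any of these in the array medians of the cell cycle genes was not tested.

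The arrays did not order these genes alike. Across the 36 genes, Pearson's r between pairs of arrays lay between -0.21 and 0.07, whereas across all names it lay between 0.35 and 0.54. These are descriptions over genes that share arrays and amplification and carry no p. The sign was the same on all 4 arrays in 2 of 36 genes, against 33.6% of all names. The median SD over arrays was 0.73 for the 36 genes and 0.53 for all names.

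Different probes of 1 gene also disagreed. In 13 genes with more than 1 tested probe, 15 pairs of probes gave 60 comparisons, of which 31 had the same sign (51.7%). The share was 65.0% for the 3977 names with several tested probes. S phase pairs shared a sign on 0 (Ccne2) to 3 (Mcm2) arrays, and mitotic pairs on 2 (such as Top2a) to 4 (Bub1b). The pooled share thus does not describe both groups alike, and the disagreement lay more in S phase pairs. Pearson's r between the probes of a pair was 0.06 for cell cycle genes and 0.44 for all such names, again as a description. On replicate 3 the 2 Rrm2 probes had -2.25 and 2.04. Ccne1 had means of 0.31 and -0.23, and Rrm1 means of -0.03, 0.21 and -0.26. For Ccna2 the second probe had -0.85, below 0 on all 4 arrays, where the brighter one had -0.11. No second probe passed the test over all probes.

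**Figure D4:**
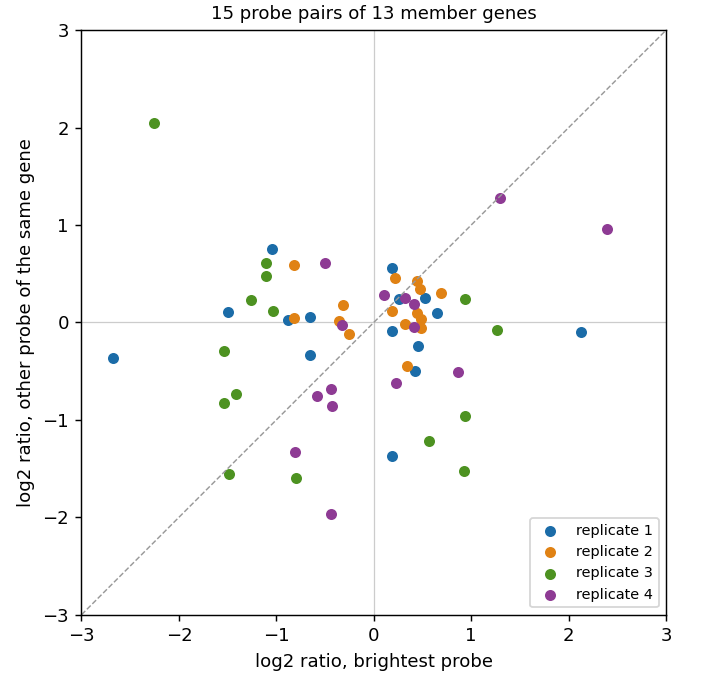
Log2 ratio of the brightest probe of a gene (horizontal) against another probe of the same gene (vertical), 1 point per array, for 15 probe pairs of 13 genes, with a dashed line of equality. Points lie in all 4 quadrants, and 31 of 60 have the same sign on both axes.

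Genes that act upstream of the set were taken from textbook lists. Of 18 CDK inhibitor and growth arrest genes tested, 1 was higher and 1 lower in mucosa cells (11.1%, against 6.62% of all names), and the list's median was 0.25. By limma, 10 had an unadjusted p under 0.05, 6 higher and 4 lower (55.6%, against 23.8% of all names). Cdkn1a, which encodes the inhibitor p21, had 1.95, 1.95, 2.97 and 2.41, a mean of 2.32 ± 0.49 (SD, n = 4; adjusted p = 0.0066, limma). It was 4.99-fold higher in mucosa cells, its second probe had 2.09 (adjusted p = 0.0048 over all probes), and it passed under each of 21 alternatives. Cdkn1c, which encodes the inhibitor p57, was lower, with -1.16, -1.40, -3.21 and -1.50, a mean of -1.82 ± 0.94 (adjusted p = 0.042). Its other 3 probes had -2.30, -1.74 and -0.69, and its call was lost under 10 of 21 alternatives, among them each replicate left out (adjusted p from 0.052 to 0.11). The other inhibitors did not pass, such as Cdkn1b (p27) at -0.67 ± 0.77, Cdkn2a at -0.42 ± 0.93 and Cdkn2d at 0.67 ± 0.55.

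**Figure D5:**
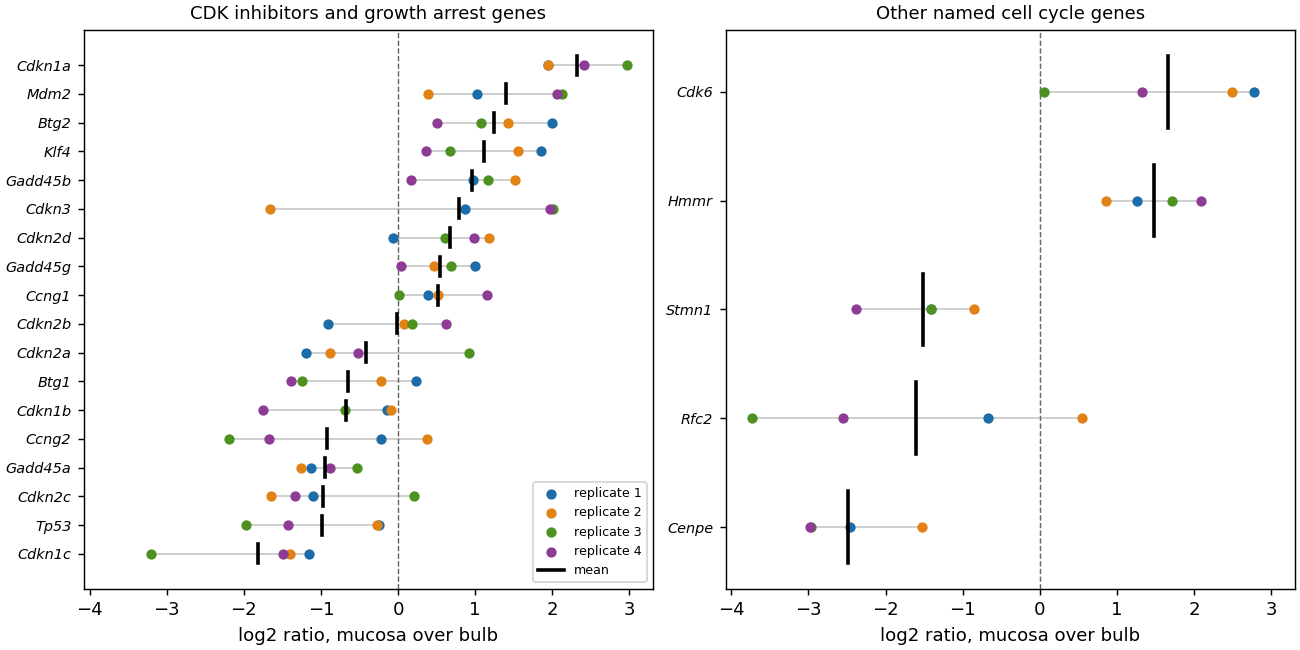
Log2 ratio of mucosa over bulb cells for 18 CDK inhibitor and growth arrest genes and for 5 other cell cycle genes named in the text, with a point per replicate and a black bar at the mean. All 4 points of Cdkn1a lie at or above 1.95, and all 4 of Cdkn1c at or below -1.16.

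Of 20 genes listed for G1 cyclins, kinases and the Rb-E2F pathway, 0 passed by limma, against 6.62% of all names. The list also held Wee1, Fzr1, Myc, Mycn, Cdc25a, Cdc25b and Cdc25c. At an unadjusted p under 0.05 there were 7 (35.0%, against 23.8% of all names), and the median was 0.24. The largest ratio was that of Cdk6, a kinase that cyclins D activate, with 2.77, 2.49, 0.06 and 1.33, a mean of 1.66 ± 1.24 (adjusted p = 0.094). Cdk6 passed without replicate 3 (2.20, adjusted p = 0.038), with array weights (1.95, 0.042) and with unpaired channels (1.66, 0.040). Of 36 further origin and replication fork genes, 0 passed by limma, 7 had an unadjusted p under 0.05 (19.4%, below the 23.8% of all names), and the median was -0.12. Rfc2, a subunit of the clamp loader, had the largest, with -0.67, 0.55, -3.74 and -2.55, a mean of -1.60 ± 1.91 (adjusted p = 0.22).

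Of 35 further spindle, kinetochore and cytokinesis genes, 1 was higher and 2 lower, with a median of 0.08. These 3 are 8.57% of the list, near the 6.62% of all names, and say nothing about the group. Cenpe, a kinetochore motor, had -2.47, -1.53, -2.97 and -2.98, a mean of -2.49 ± 0.68 (adjusted p = 0.0089, limma). Its probe cleared background on 2 of 4 arrays in mucosa cells and on all 4 in bulb cells, so it entered the test only through the brighter channel, and the size of its ratio is not settled. It was -3.08 with a background offset of 16, and its call was lost without replicate 1 (adjusted p = 0.056) and with the processed signals (-4.15, 0.052). Stmn1, a microtubule destabilizer also found in neural cells, was lower at -1.41, -0.86, -1.41 and -2.38, a mean of -1.51 ± 0.63 (adjusted p = 0.034), and its second probe had -1.47. Hmmr, a hyaluronan receptor that also binds the spindle, was higher at 1.26, 0.86, 1.71 and 2.09, a mean of 1.48 ± 0.53 (adjusted p = 0.028), but its second probe had -0.54 and the mean over probes 0.47 (adjusted p = 0.31). The calls of Stmn1 and Hmmr were lost whichever replicate was left out (adjusted p from 0.073 to 0.11 and from 0.066 to 0.093) and with the processed signals (0.063 and 0.065).

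Markers of cell types moved in these cultures, in both directions. Of all names, 6.62% passed by limma, 3.23% higher and 3.38% lower. The share was 50% for ensheathing and Schwann glia markers, 56.2% for fibroblast markers and 71.4% for smooth muscle and pericyte markers. The remaining lists are short, so that 1 or 2 calls in them say little. Of 16 ensheathing and Schwann glia markers, 7 were lower, such as Fabp7 (-2.94) and Cdh19 (-2.44), and 1 was higher, Gldn (1.87). Of 16 fibroblast markers, 7 were higher, such as Mfap5 (3.99), and 2 lower, such as Fbln1 (-4.15). Of 7 smooth muscle and pericyte markers, 5 were higher, such as Cnn1 (2.70) and Cspg4 (2.65). Rgs5 lay on the other side at -2.45 without passing (adjusted p = 0.14, limma), and Des had 0.23. The other lists were smaller, with 1 of 7 endothelial genes higher (Tek, 1.51) and 1 lower (Cdh5, -1.57), 1 of 8 macrophage genes higher (Lyz, 2.87) and 1 lower (Cd163, -1.58), 2 of 7 astrocyte genes lower (Slc1a3, -1.85, and Gfap, -1.44), 1 of 4 epithelial genes lower (Cdh1, -2.40), and 0 of 7 genes of olfactory neurons and progenitors passing, with 1 at an unadjusted p under 0.05. The part of cell composition in the ratios of Cdkn1a, Cdkn1c, Cenpe, Stmn1 and Hmmr was not tested.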

How the data were processed

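Cultured ensheathing cells were measured on 4 two-colour Agilent arrays, all on 1 slide with 1 scan time. The authors deposited spot and local background intensity on a linear scale; per the file headers these come from Agilent Feature Extraction 10.5.1.1, while the submitters' processing notes name 9.1. The deposited log10 ratios of Cy5 over Cy3 were an alternative, and the value table repeats them in every cell. Signals were corrected with normexp (offset 50) and loess in limma 3.58.1 (R 4.3.3). Control and outlier spots were left out and spots averaged per probe. A probe was tested if well above background on at least 3 arrays in 1 channel, in at least 0.5 of its spots, and the brightest probe stood for a gene name. The mean log2 ratio was tested against 0 (lmFit, eBayes) with Benjamini-Hochberg adjustment over 31897 names. The number of arrays limits the precision.

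Members and lists were chosen with earlier results of these data known. Named by rule were called members (with none called, the 4 highest and 4 lowest means of each group), up to 4 called genes of a pathway list (or else its largest ratio) and up to 2 of a marker list. Mcm6 and Kif11 were added after their values were seen. The fit was tested on simulated ratios. It found none of the planted 2-fold changes and few or none of the 4-fold ones. Planted sizes were then raised to 4-fold and 16-fold, where many and most were found, with a few false calls. Changes of 2-fold and 4-fold could thus be missed there. Those designs held far fewer changed names than the real data. The alternatives were other background corrections and normalizations, filters, probe rules, names and variance models, GC content, unpaired channels and each replicate left out.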

Additional observations from a re-analysis of the deposited data

Results flagged for a closer look

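In 3 of 47 sets of 4 array values looked at, 1 array stood far from the other 3 by Dixon's ratio at its 95% critical value, and chance alone flags about 1 in 20. Kif11 had -2.68 on replicate 1, where the others lay between 0.18 and 0.57. Its second probe had -0.37 on replicate 1 and its lowest value, -1.22, on replicate 3. Cdca8 had -0.85 on replicate 1, against 0.10 to 0.21 elsewhere. Cdkn1c had -3.21 on replicate 3, against -1.50 to -1.16 elsewhere.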

How the results depend on the processing

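Under 21 alternatives, 0 cell cycle genes were called higher in each, and 0 lower in 18. In the other 3 (a normexp offset of 16, median centring, a trended robust variance) 1 gene was called lower, Bub1, which entered the test through the bulb channel alone. The 21 were not all distinct. The processed signals, the deposited log10 ratios and the value table gave 1434 calls each over all names. No spot was saturated, so leaving out saturated spots repeated the main fit. The median ratio of the 36 genes stayed between -0.21 and -0.07 and that of mitotic genes between -0.31 and -0.12, while that of S phase genes lay between -0.08 and 0.15, on both sides of 0. The S phase median stayed above the mitotic median by 0.11 to 0.34.

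Means near 0 changed sign. Mcm7 had -0.020 with scale normalization, -0.018 with array weights and -0.14 with the GC trend removed, and Cdc6 had 0.20 with array weights. Leaving out each replicate gave ranges of -0.12 to 0.16 for Mcm7, -0.49 to 0.24 for Cdc6, -0.49 to 0.053 for Mcm2 and -0.082 to 0.53 for Cenpf. The cause was not tested.

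With no replicate block (channels unpaired), 3482 names were called in place of 2110, and 0 of the 36 genes. Over all names, the scanner's processed signals gave 1434 calls, and leaving out a replicate gave 561 (replicate 1), 568 (replicate 2), 1065 (replicate 3) and 924 (replicate 4), from fewer samples. Median centring put 59.6% of calls higher in mucosa cells. The strict filter left 34 of the 36 genes and gave no value for Bub1, Cenpe or Rfc2.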
